A study of Saccharomyces cerevisiae with 46 samples.

Results

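The arms of chromosome IV, the longest chromosome in the nuclear genome of budding yeast, hold 413 of the 3569 double-strand break (DSB) hotspots called in these data and 125 of its 1198 whole 10 kb tiles. The arms were taken as chromosome IV without the 60 kb at each end and without the 100 kb window that holds the centromere, which leaves 354 kb on the left (60001 to 414000) and 913 kb on the right (514001 to 1426882) in the SK1 assembly ASM205788v1 (last position 1486882 in the files). A hotspot was a stretch of at least 25 bp in which the mean of the 4 *rad50S* and *rad50S hop1-loop2* libraries, both strands added and smoothed with a 201 bp Hann window, lay above 0.2 hits per 1000000 mapped hits (HpM) per bp, with gaps shorter than 200 bp closed. The left arm held 119 hotspots and 35 tiles, and the right arm held 294 hotspots and 90 tiles. Hotspots are numbered from the left within each arm (left_1, right_1). The weakest peak inside the set reached 0.208 HpM per bp (a 29 bp hotspot at 1260448 to 1260476), the highest peak outside it stayed just under the threshold (at 1170060), and 3 stretches above the threshold were too short, the longest being 22 bp. The *rad50S hop1-loop2 pch2* libraries took no part in the calling.

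Meiotic recombination starts with DSBs made by Spo11, a topoisomerase-like protein that stays bound to the DNA ends it cuts until they are processed. Most breaks fall in hotspots, which in yeast lie mainly in the nucleosome-poor DNA of gene promoters, while chromatin loops are tethered to a protein axis that contains Red1, the cohesin subunit Rec8 and the HORMA domain protein Hop1. Hop1 recruits the break machinery to the axis, and its chromatin-binding region contacts nucleosomes. Pch2 is an AAA+ ATPase that remodels Hop1 and removes it from synapsed chromosomes. Chromosome IV is of interest because long chromosomes carry fewer breaks per kb than short ones in wild-type yeast, and because its arms lie mostly far from the ends and the centromere, where break control differs.

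All CC-seq samples were diploid SK1 cultures taken 6 h after transfer to sporulation medium, and all carried *rad50S*, an allele that leaves Spo11 covalently attached so that breaks are neither resected nor repaired. There were 2 libraries each of *rad50S* alone, of *rad50S hop1-loop2*, and of the same double mutant with *pch2* added (*rad50S hop1-loop2 pch2*). *hop1-loop2* replaces basic residues in loop 2 of the chromatin-binding region by alanine. The study detected no nucleosome binding by the isolated region with this change, up to the highest protein concentration it used. *pch2* is a deletion of *PCH2*. Hop1 occupancy came from SNP-ChIP, in which fixed meiotic cells of a strain with S288c sequence are added to each SK1 sample before ChIP as a spike-in. For it, 1 ChIP and 1 input library (replicate 2) of wild type and the same of *hop1-loop2* were used, at 3 h and with *RAD50* intact, and the other spike-in libraries of the series were not analysed here. *HO* and *TRP1*, where some of the strains carry marker insertions, are genes of chromosome IV, and their positions in this assembly were not determined. The study's strain list gives the *rad50S* CC-seq strain an inserted *HIS4::LEU2* locus, but the only listed *rad50S hop1-loop2 pch2* strain has none. The *rad50S hop1-loop2* CC-seq strain is not in that list. The genotypes may therefore differ at other loci, and the part of this in the changes was not tested. The study's methods speak of biologically independent replicates for CC-seq, but its list of CC-seq libraries does not name those of *rad50S hop1-loop2 pch2*, for which the p-values may measure only a technical spread.

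The CC-seq libraries held 6277735 to 7985420 hits in *rad50S* and *rad50S hop1-loop2*, but 3614810 and 1026669 hits in replicates 1 and 2 of *rad50S hop1-loop2 pch2*. In the second of these, 65.9% of the hits on the chromosome IV arms fell inside hotspots, against 86.6% in the first and 90.7 to 92.2% in the other 4 libraries. Outside hotspots the arms carried 31.8 HpM per kb in that library, 12.6 in its partner and 8.54 to 10.5 in the others. It therefore stands apart in depth and in background. Counts of calls over both arms that rest on it are given with and without it, and counts by arm or window only with it. HpM is relative to the total of each library, so a change in the number of breaks per cell cannot be seen in it.

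In *rad50S*, breaks on the chromosome IV arms were spread over many hotspots of very unequal strength. The mean HpM of a hotspot ranged from 1.57 to 6262 with a median of 133, and the 47 strongest of the 413 hotspots carried 50% of the hotspot signal. Hotspots were 29 to 1311 bp long (median 213 bp), covered 8.85% of the arms and lay 2.56 kb apart at the median, with a largest spacing of 13.7 kb. Their density was 3.36 per 10 kb on the left arm and 3.22 on the right, beside 2.96 over all 16 chromosomes. The arms, without the ends and the centromere window, carried 100.1 and 102.7 HpM per kb in the *rad50S* libraries, beside 82.9 over all 16 chromosomes. Only 1 of the 125 tiles held no hotspot, and the signal per tile ran from 82.9 to 6645 HpM. The share of the hits of a hotspot on the Watson strand had a median of 49.8%, but ranged from 5.57% to 98.1% over the hotspots.

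The strongest hotspot of the arms was right_99 at 823272 to 824582. It gave 6979 and 5546 HpM in *rad50S*, then 6513 and 6565 HpM in *rad50S hop1-loop2*, and 5026 and 3904 HpM in *rad50S hop1-loop2 pch2*, and it ranked first in each genotype. Between the first 2 genotypes the libraries overlapped and the log2 change of 0.07 ± 0.15 (SE) did not pass the test (limma on log2(HpM + 1) across all hotspots, Benjamini-Hochberg adjusted p = 0.69). The hotspots that followed it in *rad50S* did not hold their place in the same way. Right_61 at 690682 to 691269 gave 3255 and 2890.5 HpM in *rad50S* against 1399 and 1534 HpM in *rad50S hop1-loop2* (log2 change -1.07 ± 0.14, adjusted p = 0.00013) and moved from rank 2 to rank 14. Right_146 at 977630 to 977969 gave 2305 and 2063 HpM against 830 and 623 HpM (log2 change -1.60 ± 0.17, adjusted p = 3.7e-05) and moved from rank 4 to rank 44. Right_279 at 1381588 to 1382473, near the outer edge of the right arm, moved the other way, with 1952 and 2610 HpM in *rad50S* against 4346 and 5118 HpM in *rad50S hop1-loop2* (log2 change 1.06 ± 0.17, adjusted p = 0.00052). The libraries of the 2 genotypes did not overlap in any of the 3.

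The comparison of *rad50S hop1-loop2* with *rad50S* asks where breaks go when nucleosome binding by the chromatin-binding region of Hop1 is disrupted. On the chromosome IV arms the share of all hits differed by less than the spread between replicates, while most hotspots changed. The arms held 12.7% and 13.0% of all hits in *rad50S* and 12.9% and 12.8% in *rad50S hop1-loop2* (12.85% ± 0.23 against 12.87% ± 0.06, SD, n = 2 each; two-sided exact permutation test p = 1.0, where 2 against 2 libraries cannot go below 0.33). Of the 413 hotspots, 188 fell and 150 rose, which is 45.5% and 36.3%, beside 43.2% and 34.2% over all hotspots of the genome. In all, 81.8% of the hotspots on the arms were called in either direction, beside 77.4% over the genome, 75.1% on chromosome VII and 74.4% on chromosome XV, which are also long (both without 60 kb at each end but with their centromeres). The shares on the arms are thus near those of the whole genome. All 413 hotspots were tested, since no filter on low values was used.

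The changes were large in both directions. The log2 change on the arms ranged from -3.92 to 4.52 with quartiles at -1.23 and 0.81, near those of all hotspots (-1.24 and 0.83). Its median of -0.16 was that of all hotspots (-0.16), so the size of the changes was that of the whole genome. The signal of 124 hotspots was more than 2-fold lower and that of 83 more than 2-fold higher, and 37 and 32 of these passed 4-fold. The same counts over the genome are not given here. When the libraries were instead centred on the median hotspot, which shifts the median change of all hotspots from -0.16 to 0.02, 162 hotspots of the arms were lower and 167 higher. Both *rad50S hop1-loop2* libraries lay below both *rad50S* libraries at 204 hotspots (49.4%, beside 48.3% over the genome) and above them at 173 (41.9%, beside 39.3%). Replicates differed far less than genotypes. The median absolute log2 difference over the 413 hotspots was 0.20 between the *rad50S* libraries and 0.15 between the *rad50S hop1-loop2* libraries, against 0.99 to 1.06 for the 4 pairs across the genotypes.

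**Figure D1:**
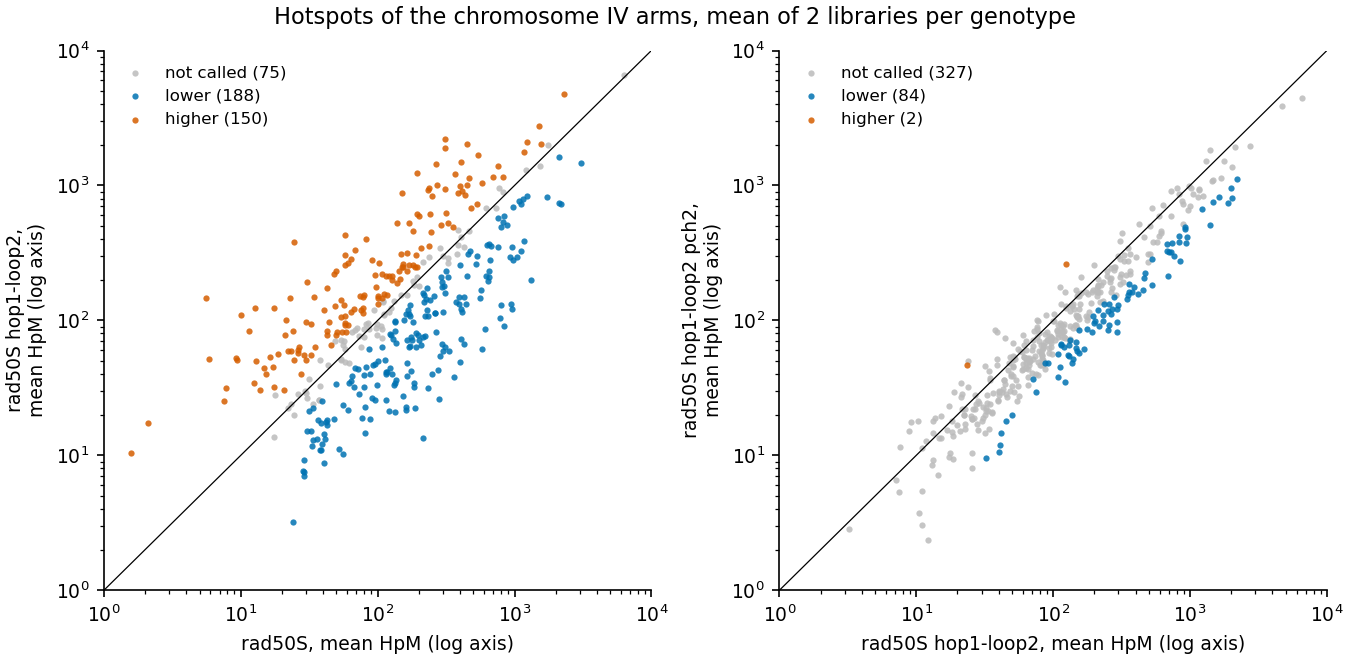
Mean HpM (log axes, 2 libraries per genotype) of the 413 hotspots of the chromosome IV arms, *rad50S hop1-loop2* against *rad50S* on the left and *rad50S hop1-loop2 pch2* against *rad50S hop1-loop2* on the right. Each point is a hotspot, coloured by its call at an adjusted p below 0.05, and the line marks equal values. The left cloud spreads to both sides (188 lower, 150 higher), and the right cloud is narrower and lies mostly below the line (84 lower, 2 higher).

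The hotspots with the largest decreases lost nearly all of their signal. Right_241 at 1263442 to 1263692 gave 234 and 198 HpM in *rad50S* against 14.2 and 12.5 HpM in *rad50S hop1-loop2* (log2 change -3.92 ± 0.18, adjusted p = 9.7e-07). Its neighbour right_242 gave 275 and 290 HpM against 30.7 and 21.8 HpM. Right_107 at 849696 to 849928 gave 351 and 367 HpM against 42.9 and 32.7 HpM (log2 change -3.23 ± 0.17, adjusted p = 1.6e-06). It lies to the right of right_99, the hotspot that did not pass the test. On the left arm the largest decreases were at left_41, left_43 and left_88. Left_41 at 176148 to 176424 gave 781 and 1123 HpM in *rad50S* against 123 and 120 HpM in *rad50S hop1-loop2* (log2 change -2.94 ± 0.19, adjusted p = 2.6e-06). Left_43, in the next tile, gave 825 and 1065 HpM against 126 and 138 HpM, and the weaker left_88 gave 130 and 194 HpM against 21.5 and 24.2 HpM. None of these 6 hotspots had overlapping libraries.

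The hotspots with the largest increases came as 2 groups of immediate neighbours. Right_282, right_283 and right_284 lie within 1389498 to 1391385, close to the outer edge of the right arm. Right_284 was among the weakest hotspots of the arms in *rad50S*, with 6.47 and 4.62 HpM, and gave 150 and 145 HpM in *rad50S hop1-loop2* (log2 change 4.52 ± 0.21, adjusted p = 9.7e-07). Calling used the mean of both genotypes, so a site this weak in *rad50S* could enter the set through its *rad50S hop1-loop2* signal. Right_283 gave 24.7 and 24.5 HpM against 369 and 390 HpM, and right_282 gave 10.2 and 9.90 HpM against 125 and 93.5 HpM. The other group, left_27, left_28 and left_29, lies within 144232 to 147321 on the left arm. Left_29 gave 365 and 252 HpM in *rad50S* against 2519 and 1905 HpM in *rad50S hop1-loop2* (log2 change 2.85 ± 0.21, adjusted p = 5.4e-06), so that it moved from rank 104 to rank 4 of the arms. Left_28 gave 319 and 297 HpM against 1953 and 1813 HpM, and left_27 gave 34.0 and 27.4 HpM against 199 and 187 HpM. The whole tile from 140001 to 150000 rose with them, from 903 and 750 HpM to 5244 and 4393 HpM (log2 change 2.54 ± 0.13, adjusted p = 8.6e-07), the largest increase of any tile on the arms.

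Of the 5 strongest *rad50S* hotspots of the left arm, left_51 had the largest change. Left_51 at 211871 to 212136 gave 955 and 1113 HpM in *rad50S* against 281 and 304 HpM in *rad50S hop1-loop2* (log2 change -1.81 ± 0.15, adjusted p = 7.9e-06). Left_96, left_54 and left_19 were lower by 0.39 to 0.50 on the log2 scale and left_90 was higher by 0.37, all with adjusted p between 0.0082 and 0.034. The calls of left_96, left_54 and left_19 were lost with median centring and in edgeR and DESeq2 on the recovered reads. Without *rad50S hop1-loop2* replicate 2 none of these 4 passed, and without its replicate 1 left_19 alone passed; left_96 was also lost without *rad50S* replicate 1. Among the 20 strongest hotspots of the arms, the smallest changes were those of right_99, right_124 and right_249, none past the test. Right_124 at 906735 to 907271 gave 1227 and 1181 HpM against 1257 and 1358 HpM (log2 change 0.12 ± 0.13), and right_249 at 1295541 to 1296231 gave 1521 and 1567 HpM against 1362 and 1427 HpM (log2 change -0.15 ± 0.13).

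Changes ran together along the chromosome. Of 280 pairs of neighbouring hotspots that were both called, 241 (86.1%) had the same direction, and this share was 71.8% for hotspots 3 apart and 59.1% for hotspots 10 apart. Of the 101 tiles with at least 2 called hotspots, 45 held only hotspots that fell, 29 only hotspots that rose and 27 held both. Neighbouring hotspots lie in the same libraries and share local sequence, so the pairs are a description and no test. These shares are not given here for other chromosomes, so they cannot be read as particular to chromosome IV.

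At the scale of 10 kb, 58 of the 125 tiles fell and 40 rose (46.4% and 32.0%, beside 48.6% and 31.8% over the genome). Median centring turned this into 47 lower and 49 higher (40.1% and 40.8% over the genome), so which direction was more frequent depends on the scaling. The largest decrease on the right arm was in a pair of neighbouring tiles. The tile from 1260001 to 1270000, which holds right_241 and right_242, went from 748 and 745 HpM to 88.2 and 79.6 HpM (log2 change -3.14 ± 0.13, adjusted p = 3.5e-07), and the tile before it went from 2002 and 2125 HpM to 366 and 368 HpM (log2 change -2.49 ± 0.10). The tile from 840001 to 850000, with right_107, went from 800 and 839 HpM to 130 and 124 HpM. On the left arm the largest decrease was in the tile from 180001 to 190000, from 1494 and 1892 HpM to 411 and 431 HpM (log2 change -2.0 ± 0.13, adjusted p = 1.9e-06). Beside the tile with left_29, the tiles that rose most on the left arm were the neighbours from 370001 to 380000 and from 380001 to 390000. They gave 495 and 435 HpM and 286 and 253 HpM in *rad50S*, against 1440 and 1504 HpM and 1073 and 1154 HpM in *rad50S hop1-loop2* (3.17- and 4.13-fold). On the right arm they were the tiles from 1390001, from 980001 and from 1150001, which were 4.05-, 3.62- and 3.61-fold higher.

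**Figure D2:**
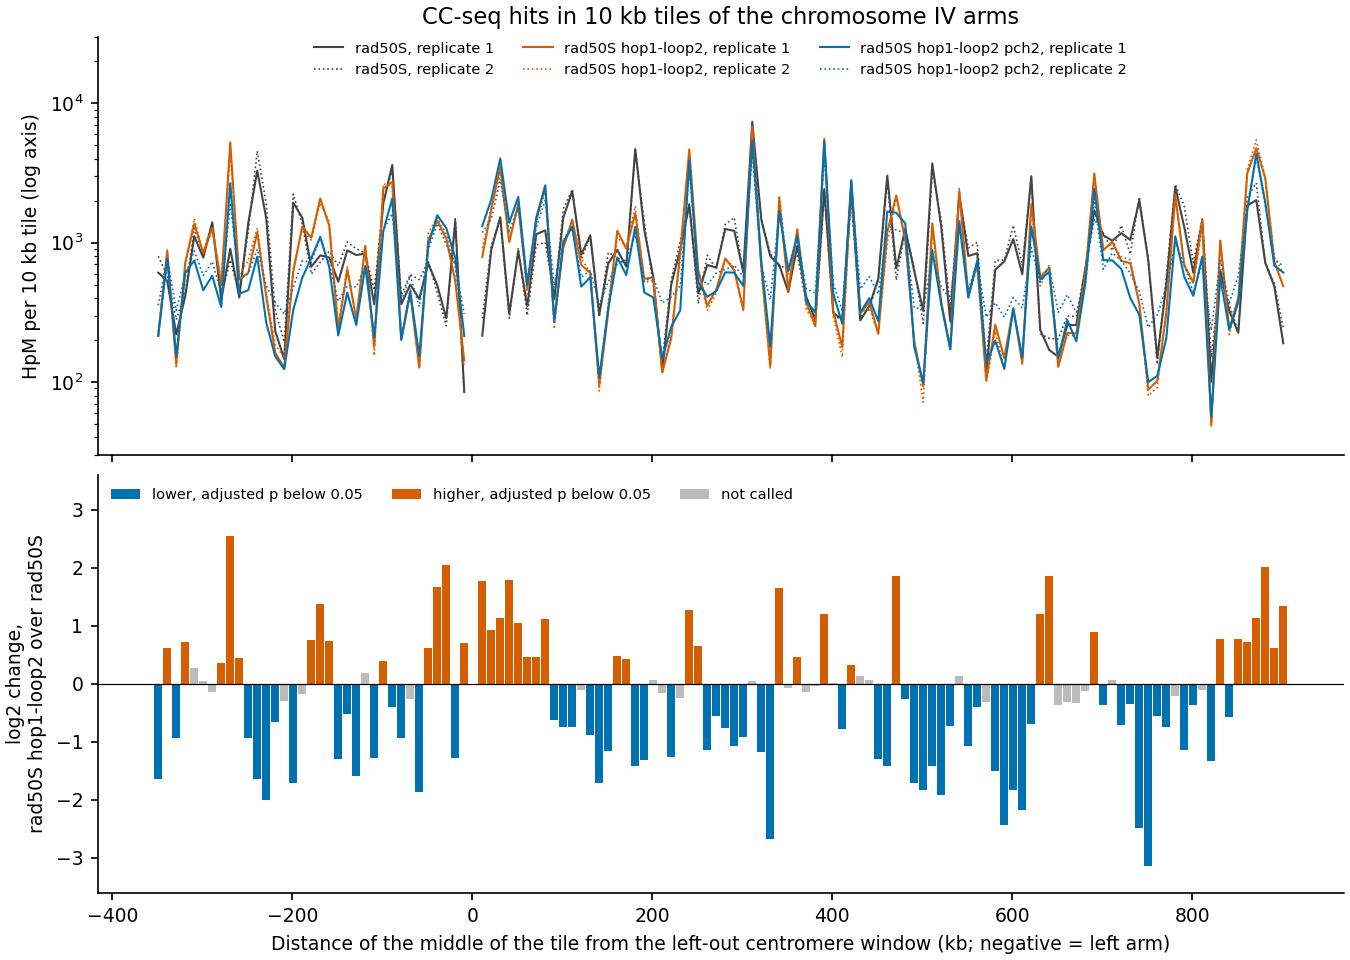
Top, HpM in each 10 kb tile of the chromosome IV arms (log axis) for the 6 libraries (solid lines replicate 1, dotted lines replicate 2) against the distance of the tile from the left-out centromere window. Bottom, log2 change of each tile in *rad50S hop1-loop2* against *rad50S*, coloured by its call. The 8 tiles nearest the window on the right and the 6 outermost on the right all rose, and long stretches between them fell.

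Runs of neighbouring tiles show where the arms gained and lost. Both *rad50S hop1-loop2* libraries lay above both *rad50S* libraries in 2 runs of at least 4 tiles, and both were on the right arm. All runs were picked by the direction of these same libraries. The counts of tiles and hotspots inside them are therefore a description and no test. The first was the 80 kb from 520001 to 600000, next to the left-out centromere window, with 6527 and 6178 HpM in *rad50S* against 13417 and 12741 HpM in *rad50S hop1-loop2* (2.06-fold). All 8 of its tiles and 24 of its 28 hotspots rose, and 1 hotspot fell. The second was the 60 kb from 1360001 to 1420000 at the outer edge of the arm, with 5482 and 6519 HpM against 12419 and 13519 HpM (2.16-fold), where all 6 tiles and 20 of 22 hotspots rose and 1 fell. Runs in which both libraries were lower were more frequent on HpM without median centring, where the median tile of the genome was -0.30 on the log2 scale. There were 2 such runs on the left arm (8 tiles) and 5 on the right (32 tiles). The longest was the 90 kb from 1230001 to 1320000, with 10024 and 10889 HpM against 5693 and 5874 HpM, in which 21 of 30 hotspots fell and 2 rose. The 60 kb from 990001 to 1050000 and the 80 kb from 1060001 to 1140000 went to 0.432 and 0.477 of the *rad50S* mean, and 16 of 18 and 21 of 27 of their hotspots fell. On the left arm the 40 kb from 160001 to 200000, which holds left_41 and left_43, went from 6385 and 7969 HpM to 2369 and 2640 HpM, and 12 of its 13 hotspots fell and none rose. The 50 kb from 770001 to 820000, just before right_99, and the 40 kb from 320001 to 360000 on the left arm went to 0.539 and 0.700 of the *rad50S* mean, and the 40 kb from 1160001 to 1200000 to 0.851, the last with none of its 4 tiles called.

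Averaged over 100 kb windows counted outward from the left-out centromere window, the changes of the right arm were mixed. Its first window gave 843 and 833 HpM per tile in *rad50S* and 1461 and 1401 in *rad50S hop1-loop2* (1.71-fold), and its last, 800 to 900 kb out, gave 798 and 910 against 1519 and 1613 (1.83-fold). Between them, the windows 100 to 200, 500 to 600 and 700 to 800 kb out went to 0.607, 0.519 and 0.594 of the *rad50S* mean, with 19 of 33, 27 of 34 and 25 of 34 hotspots lower. The window that holds right_99 was 1.24-fold higher. The windows 200 to 300 and 600 to 700 kb out were at 1.03 and 1.01 of the *rad50S* mean with overlapping libraries, and that 400 to 500 kb out was at 0.894. On the left arm the 4 windows stayed between 0.920 and 1.07 of the *rad50S* mean, and the libraries of the genotypes overlapped in 2 of them. Within these windows 50 hotspots of the left arm were lower and 46 higher.

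**Figure D3:**
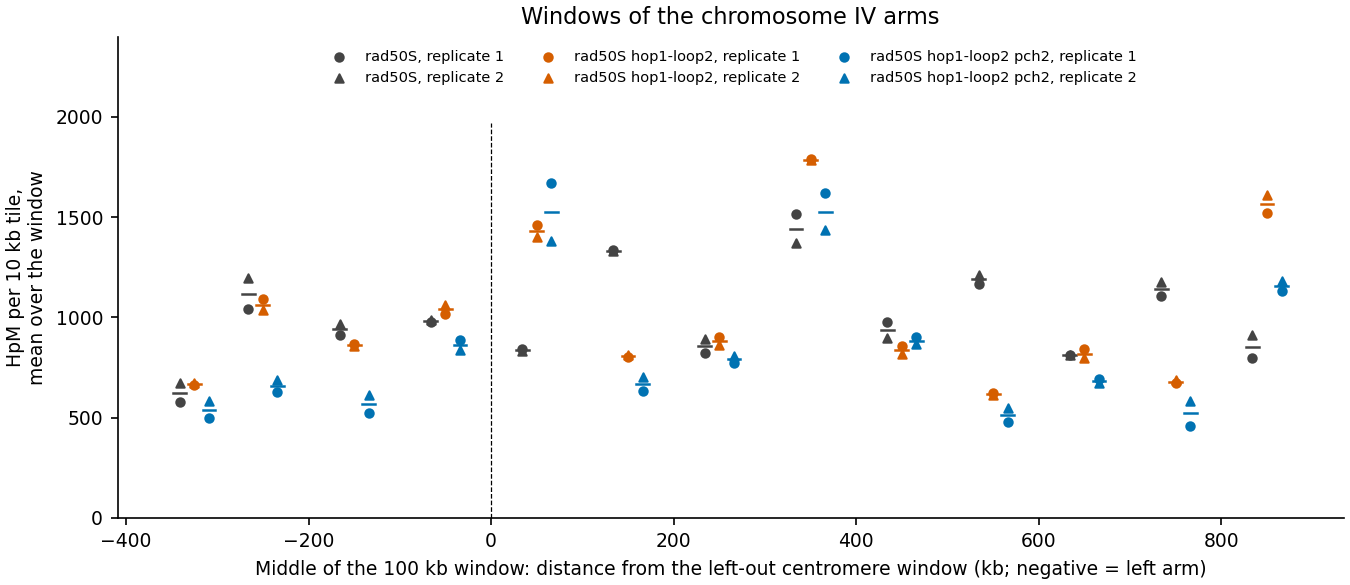
Mean HpM per 10 kb tile in 100 kb windows of the chromosome IV arms (the outermost left window holds 5 tiles, the others 10), by distance from the left-out centromere window. Points are libraries and bars their mean (n = 2). The first and the last window on the right lie at 1461 and 1401 and at 1519 and 1613 HpM in *rad50S hop1-loop2*, against 843 and 833 and 798 and 910 HpM in *rad50S*, and the left windows of *rad50S hop1-loop2 pch2* lie below the other genotypes in 3 of 4 windows.

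The parts of chromosome IV that the arms leave out moved the same way in both libraries. The centromere window held 0.195% and 0.212% of all hits in *rad50S* and 0.877% and 1.049% in *rad50S hop1-loop2* (0.204% ± 0.013 against 0.963% ± 0.122, SD, n = 2 each, 4.73-fold, exact p = 0.33, the smallest possible). The 60 kb ends together held 0.429% and 0.436% against 0.903% and 0.885% (2.07-fold, exact p = 0.33). With the arms level at 12.85% and 12.87%, the whole chromosome went from 13.5% ± 0.25 to 14.7% ± 0.05 of all hits (n = 2 each, exact p = 0.33).

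Direction also varied with the strength of a hotspot. Of the hotspots with the lowest *rad50S* signal (under 55.4 HpM), 27 of 103 fell and 56 rose, and of those with the highest (309 HpM and above), 62 of 104 fell and 26 rose. The *rad50S* values both sort and enter this contrast, so the split is a description with no test. Hotspots were also called on the mean of both genotypes. A site weak in *rad50S* could therefore enter the set through a high *rad50S hop1-loop2* signal, which favours increases among the weakest. Split in the same way by length, 43 of 103 were lower and 37 higher among the shortest (under 153 bp) and 43 of 104 lower and 45 higher among the longest (342 bp and above).

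Inside hotspots the mean position of hits moved by a median of 4.82 bp between the 2-library means of *rad50S* and *rad50S hop1-loop2*. This was more than the 3.05 and 2.91 bp between the single replicates of each genotype. The single position with the most hits was the same in 269 of the 413 hotspots (65.1%), and no such share between replicates is given here. Only right_8, right_28, right_196 and right_277 moved by more than 50 bp, by 101, 60.4, 53.5 and -72.7 bp (positive toward higher positions), and these 4 were chosen after their values were seen. Right_196 moved by -54.1 bp between the *rad50S* replicates themselves. In each of the 6 libraries the Watson and Crick signals on the arms matched best with Crick positions 1 bp above Watson positions.

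The comparison of *rad50S hop1-loop2 pch2* with *rad50S hop1-loop2* asks what loss of Pch2 adds. On the chromosome IV arms the share of all hits was lower in both libraries, at 10.8% and 10.8% against 12.9% and 12.8% (10.80% ± 0.04 against 12.87% ± 0.06, SD, n = 2 each, 0.839-fold, exact p = 0.33, the smallest possible). The share is close between the 2 *pch2* libraries although their depth and their share inside hotspots differ. The centromere window went on to 1.66% and 1.38% of all hits, 1.58 times the *rad50S hop1-loop2* mean, while the ends stayed at 0.930% and 0.952%, so that the whole chromosome held 13.3% ± 0.23. With each strand position counted 1 time at most, the ratio for the arms was 0.926 in place of 0.839.

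**Figure D4:**
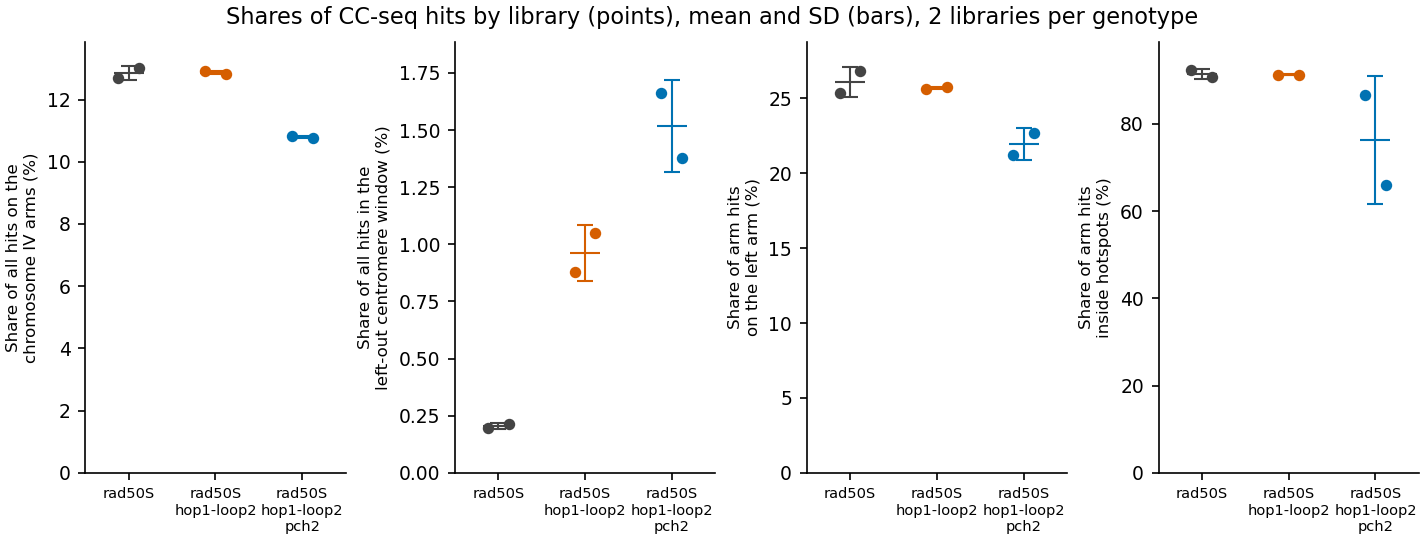
Shares of CC-seq hits in each library (points) with the mean and SD (bars, n = 2) for the chromosome IV arms, the left-out centromere window, the left arm among arm hits, and hotspots among arm hits. The arms hold 12.7 to 13.0% of hits in the first 2 genotypes and 10.8% in both *rad50S hop1-loop2 pch2* libraries, the centromere window rises from 0.204% to 0.963% and 1.52% at the mean, and the share inside hotspots is 86.6% and 65.9% in the *pch2* libraries.

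Hotspots of the arms fell far more often than they rose in this comparison. Of 413, 84 fell and 2 rose (20.3% and 0.484%, beside 11.9% and 2.8% over the genome), and 254 had both *pch2* libraries below both others (61.5%, beside 45.0%). The share that fell was 12.3% on chromosome VII and 14.6% on chromosome XV, and the share that rose was 2.05% and 0.324%. Both *pch2* libraries lay below both others at 41.0% of the hotspots of chromosome VII and 54.4% of those of chromosome XV. The median log2 change was -0.48 on the arms, -0.23 on chromosome VII, -0.42 on chromosome XV and -0.30 over all hotspots. Hotspots were called without the *pch2* libraries, and fewer hits of these libraries fell inside them; the part of this in the decreases was not tested. Centring on the median hotspot gave 76 lower and 19 higher hotspots on the arms, beside 10.4% and 12.2% over the genome. These calls rest on few libraries: 238 fell and 9 rose without *rad50S hop1-loop2 pch2* replicate 1, 93 and 12 without its replicate 2, 3 and 0 without *rad50S hop1-loop2* replicate 1, and 0 and 0 without *rad50S hop1-loop2* replicate 2. With each strand position counted 1 time at most no hotspot passed in limma (119 lower and 11 higher at an unadjusted p under 0.05), while edgeR gave 81 and 19 and DESeq2 80 and 22 on the full reads.

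With all 6 libraries, a larger share of the hotspots fell on the left arm than on the right. These calls rest on few libraries, as given above for both arms, and counts by arm are not given with a library left out. On the left 44 of 119 hotspots fell and none rose (37.0% lower), against 40 of 294 lower and 2 higher on the right (13.6% lower), and the median log2 change was -0.72 on the left and -0.42 on the right; the difference between the arms has no test of its own. The left arm held 25.6% and 25.7% of arm hits in *rad50S hop1-loop2* and 21.2% and 22.7% in *rad50S hop1-loop2 pch2* (25.7% ± 0.06 against 21.95% ± 1.07, SD, n = 2 each, exact p = 0.33). The windows 100 to 200 and 200 to 300 kb from the centromere window held 17 and 22 of the 44 hotspots that fell on the left arm, and went to 0.658 and 0.618 of the *rad50S hop1-loop2* mean.

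The 3 largest decreases were all on the left arm. Left_21 at 127977 to 128229 gave 240 and 236 HpM in *rad50S*, then 298 and 290 HpM in *rad50S hop1-loop2* and 83.3 and 79.9 HpM in *rad50S hop1-loop2 pch2* (log2 change -1.84 ± 0.21, adjusted p = 0.0044). Left_73 at 267264 to 267666 gave 354 and 463, then 111 and 133, then 37.6 and 32.1 HpM over the same genotypes (log2 change -1.78 ± 0.25, adjusted p = 0.0072), so both steps were decreases. Left_21 and left_73 did not pass without *rad50S hop1-loop2* replicate 2. Left_67 gave 138 and 138 HpM against 75.8 and 21.4 HpM, with *pch2* libraries far apart, and its call was lost when a library of either of the other genotypes was left out. The 5 strongest *rad50S* hotspots of the left arm all fell. Left_90 at 314061 to 315228, which had risen in *rad50S hop1-loop2* to 1888 and 2138 HpM, gave 827 and 774 HpM (log2 change -1.33 ± 0.20, adjusted p = 0.0072). The neighbours left_27, left_28 and left_29, which had risen most on this arm, fell again but stayed above *rad50S*, with 1286 and 938 HpM at left_29.

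On the right arm a hotspot close to the centromere window went further up. Right_3 at 517899 to 518093 gave 18.2 and 16.9 HpM in *rad50S*, then 123 and 124 HpM in *rad50S hop1-loop2* and 289 and 237 HpM in *rad50S hop1-loop2 pch2* (log2 change of the last step 1.08 ± 0.23, adjusted p = 0.020). It was the only increase that met the conditions set for naming, and its call was lost when any *rad50S* or *rad50S hop1-loop2* library was left out. The other call, right_128 at 917251 to 917364, went from 57.2 and 55.4 to 25.5 and 21.5 and then 53.1 and 40.9 HpM (adjusted p = 0.047; named after its values were seen). The strong hotspots of the right arm did not move together. Right_61 and right_196 fell again, to 903 and 609 HpM and to 482 and 267 HpM, and right_249, level before, fell to 604 and 409 HpM (log2 change -1.49 ± 0.23, adjusted p = 0.0081). Right_124 gave 1759 and 1298 HpM and right_279 gave 4076 and 3731 HpM, neither past the test. Right_146 gave 1180 and 647 HpM, libraries that overlap those of *rad50S hop1-loop2*.

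In tiles, 32 of 125 fell and 4 rose (25.6% and 3.2%, beside 13.8% and 21.8% over the genome), with 14 lower and 0 higher on the left arm and 18 lower and 4 higher on the right. Chromosome XV was near the arms with 22.6% lower and 5.38% higher, and chromosome VII had 11.5% and 17.7%. The median tile change was 0.0002 on chromosome XV and 0.22 on chromosome VII. Over the genome the median tile was 0.26 higher on the log2 scale, against -0.00 on the arms, and centring gave 39 lower and 1 higher, beside 19.3% and 18.0% over the genome. The tile beside the centromere window on the right, from 520001 to 530000, rose from 790 and 911 HpM to 1316 and 1181 HpM (log2 change 0.56 ± 0.17, adjusted p = 0.022). No tile of the arms was called higher without either of the *rad50S hop1-loop2* libraries, this one included. Tiles with few hits in *rad50S hop1-loop2* often had one *pch2* library well above the other, as at 840001 to 850000 (180 and 390 HpM), where replicate 2 has the higher background; its part in these increases was not tested. Leaving out *rad50S hop1-loop2 pch2* replicate 1, the deeper library, gave 32 tiles lower and 42 higher, and leaving out replicate 2 gave 34 lower and 9 higher.

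Against *rad50S*, with which the first comparison also shares its libraries, the *rad50S hop1-loop2 pch2* arms had 208 hotspots lower and 71 higher (50.4% and 17.2%, beside 43.9% and 21.3% over the genome), and 50 tiles lower and 30 higher (40.0% and 24.0%, beside 30.8% and 30.1%). The median hotspot change was -0.69, against -0.55 over the genome, and centring gave 165 lower and 126 higher, beside 34.5% and 34.4% over the genome. Without *rad50S hop1-loop2 pch2* replicate 2 the counts were 201 hotspots lower and 98 higher, and 68 tiles lower and 31 higher. The left arm had 63 hotspots lower and 15 higher, and the right arm 145 and 56. Right_241 stayed at 4.98 and 13.6 HpM and right_284 at 98.2 and 86.7 HpM, the first below and the second above the *rad50S* libraries (adjusted p = 1.8e-05 and 6.1e-06). The run of 80 kb next to the centromere window gave 15446 and 12283 HpM, still above the 6527 and 6178 HpM of *rad50S*, and the 90 kb run from 1230001 gave 3860 and 4967 HpM.

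By SNP-ChIP, chromosome IV kept more Hop1 in *hop1-loop2* than any other chromosome. SNP-ChIP compares SK1 with S288c reads on a chromosome in ChIP and again in input. The SK1 to S288c ratio of ChIP over that of input was 1.34 for wild-type cells against 0.952 for the mutant, so that Hop1 on chromosome IV was 70.9% of wild type (95% interval 68.9 to 73.0%, counting error only). The value was the highest of the 16 chromosomes. Chromosome XI followed with 65.7% (62.8 to 68.7%), chromosomes VII and XV had 62.7% and 61.4%, all chromosomes together 59.6%, and chromosome III was lowest with 40.2%. The intervals of chromosomes IV and XI do not overlap, but only 1 ChIP and 1 input library per genotype was used here, so the values come with no replicate error and no test was made. With S288c reads of all chromosomes as reference, the value of chromosome IV was lower and fell below its own interval, as given below. The rank of chromosome IV under that reference is not given here. Chromosome IV took 11.9% of SK1 ChIP reads in wild type and 13.5% in *hop1-loop2*, against 13.1% and 13.3% in input, and the *hop1-loop2* input was the shallowest library with 278247 reads. These values are for the whole chromosome, centromere and ends included, at 3 h in cells that process their breaks.

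**Figure D5:**
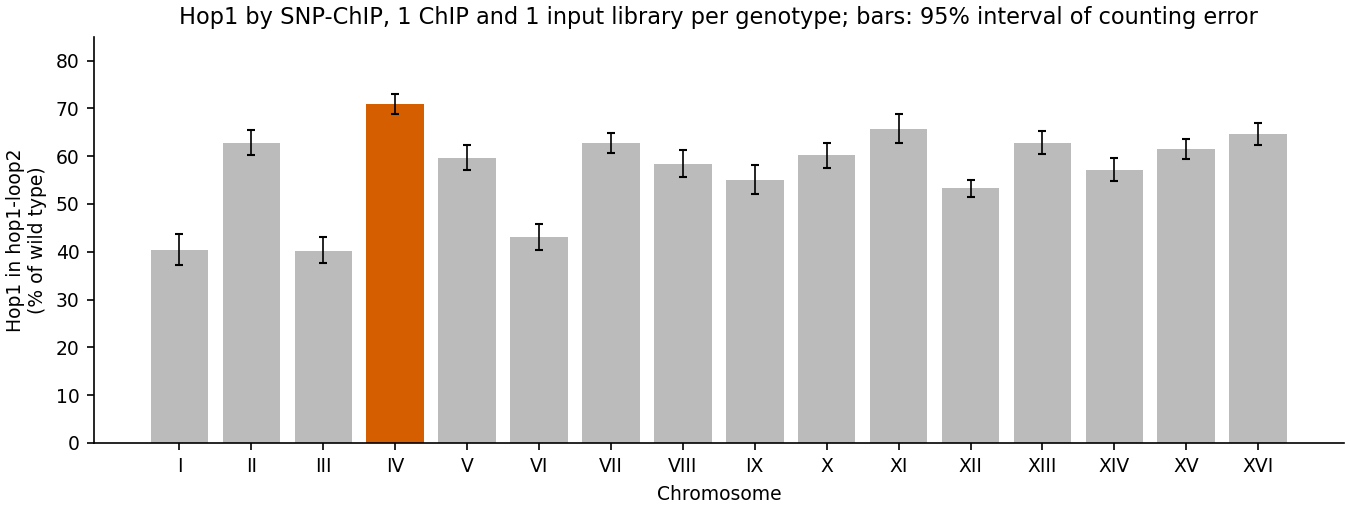
Hop1 in *hop1-loop2* as a percentage of wild type for each chromosome by SNP-ChIP, with 95% intervals for counting error only (1 ChIP and 1 input library per genotype used here). Chromosome IV (orange) is highest at 70.9%, and chromosomes I, III and VI are lowest at 40.2 to 43.0%.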

How the data were processed

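CC-seq and SNP-ChIP files were used. The authors mapped CC-seq reads to SK1 (ASM205788v1) and deposited HpM per position and strand, an RPM unit; its steps gave whole reads for 100% of values (tolerance 0.01 of a read), and removal of duplicates is not given in the sources used here. The deposited SNP-ChIP counts per chromosome come from Bowtie alignment to concatenated SK1 and S288c genomes with perfect matches only; the row without a chromosome held 0 reads. Depths stand in the report; intervals cover counting error only.

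Hotspots and tiles of all 16 chromosomes were summed and tested on log2(HpM + 1) with limma 3.58.1 (R 4.3.3, trend, no covariate, Benjamini-Hochberg, adjusted p below 0.05), on 4 libraries for *rad50S hop1-loop2* against *rad50S* and on all 6 otherwise; fold changes on this scale understate changes of weak features. Chromosome IV rows were then read out. Recovered reads were also tested with edgeR 4.0.16 and DESeq2 1.42.0. Shares of hits were compared by two-sided exact permutation tests over libraries. The fits were also run on simulated data with a common mean profile, apart from the changes put in, and a common dispersion. The simulation lacked the difference in background between the *rad50S hop1-loop2 pch2* libraries, and its outcome is not given here. Alternatives covered pseudocounts of 0.1 and 10, a mean of at least 20 HpM, median centring, thinning to the lowest total, positions counted 1 time, thresholds of 0.1 and 0.4 HpM per bp, hotspots from all 6 libraries, tiles shifted by 5 kb, ends of 30 kb, the replicate block and each library left out.

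Hotspots were named by rule: the 5 strongest in *rad50S* per arm; per arm the 3 largest decreases and increases in *rad50S hop1-loop2* that were called, did not overlap and had a mean of at least 50 HpM; over both arms the same for *rad50S hop1-loop2 pch2* against *rad50S hop1-loop2*; and the 3 least changed of the 20 strongest. Tiles were the 3 largest called changes per arm and direction and every run of at least 4 on the same side. Members and lists were chosen with earlier results of these data known. Groups follow sample titles, since some genotype entries of the labels differ from them. No SK1 sequence or annotation was used here, so hotspots carry no gene names.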

Additional observations from a re-analysis of the deposited data

How the results depend on the processing

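No called change of a named hotspot changed sign under the alternatives run, and 217 of 259 values of the main results kept their side or stayed within the limits used. For hotspots in *rad50S hop1-loop2 pch2* against *rad50S hop1-loop2*, the main 84 lower and 2 higher became 0 and 0 with each strand position counted 1 time, 19 higher with median centring and in edgeR, 22 higher in DESeq2, and 1 higher with hotspots called on all 6 libraries; leaving out 1 library gave 0 to 238 lower and 0 to 12 higher. Against *rad50S* the main 208 lower became 137 with each position counted 1 time, and the main 71 higher became 126 with centring and 122 in both edgeR and DESeq2; leaving out 1 library gave 162 to 252 lower and 50 to 98 higher. For tiles in *rad50S hop1-loop2 pch2* against *rad50S hop1-loop2*, DESeq2 gave 51 lower and 11 higher, centring 1 higher, and each position counted 1 time 2 higher, against 32 and 4; leaving out 1 library gave 20 to 34 lower and 0 to 42 higher. For *rad50S hop1-loop2* against *rad50S*, leaving out 1 library gave 163 to 186 hotspots lower and 116 to 151 higher. Replicate numbers are shared between genotypes, but nothing says that they pair the libraries (correlation of replicate differences over all 3569 hotspots 0.31 for *rad50S* and *rad50S hop1-loop2*, 0.085 and 0.11 with the *pch2* libraries); with the replicate block, tiles called higher went from 4 to 7 and hotspots in the first comparison to 194 lower and 160 higher.

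Counting each position 1 time moved the ratio of the arm share to 1.03, 0.926 and 0.952 (main 1.00, 0.839 and 0.841, for *rad50S hop1-loop2* against *rad50S*, and for *rad50S hop1-loop2 pch2* against each of them in turn, the former mutant first), that of the share inside hotspots to 0.974 in the first comparison (main 0.998), and that of the left arm to 0.918 and 0.933 in the comparisons of *rad50S hop1-loop2 pch2* (main 0.855 and 0.841). With ends of 30 kb left out, the arm ratio was 1.03 and 0.873 in the comparisons with *rad50S* and the left arm ratio 0.940 in the first (main 0.984). Hop1 on chromosome IV was 66.9% of wild type with S288c reads of all chromosomes as reference. The causes were not tested. Of 396 values for the named hotspots, 38 lost their call, in 8 hotspots. The depth of *rad50S hop1-loop2 pch2* replicate 2, where 1 read is 0.974 HpM, limits values under about 3 HpM.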

Other observations

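Some positions inside strong hotspots of the chromosome IV arms moved apart from the hotspot that holds them, and they were chosen after their values were seen. The strongest strand position in *rad50S* was on the Crick strand at 977806, inside right_146. It gave 380 and 342 HpM in *rad50S*, then 168 and 102 HpM in *rad50S hop1-loop2* and 385 and 240 HpM in *rad50S hop1-loop2 pch2*, whereas the whole hotspot stayed at 1180 and 647 HpM in the last genotype against 2305 and 2063 HpM in *rad50S*. On the Watson strand at 1382195, inside right_279, the values were 40.1 and 90.4 HpM in *rad50S*, then 81.7 and 87.7 HpM in *rad50S hop1-loop2* and 315 and 260 HpM in *rad50S hop1-loop2 pch2*, while the hotspot did not pass the test between the last 2 genotypes. The strongest position in *rad50S hop1-loop2*, on the Crick strand at 147224 inside left_29, gave 67.1 and 51.7, then 512 and 325, then 246 and 144 HpM, and followed its hotspot. Hits at 1 position can be copies of 1 molecule, since no molecular identifier is described, and the part of copies in these values was not tested.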
